A study of Mus musculus with 10 samples.

Results

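The genes described here flank Gt(ROSA)26Sor, the Rosa26 locus, on mouse chromosome 6. They are a list of 45 genes chosen by genome position, all within about 10 Mb of the locus, out of 54307 genes in the count table. By its rule the list was taken regardless of change, but it was drawn up with results of these libraries known. The list is not complete, since 57 other genes that were tested lie within 10 Mb of Gt(ROSA)26Sor. Of the 45, 43 were matched through the gene identifiers and symbols of the deposited log2 table and 2 (Cidec and Ninj2) through the GENCODE M21 annotation. A filter on low counts left 41 of them among the 12411 genes tested. Sumf1 and Srgap3 lie before the locus in the order of coordinates, and the other 43 lie after it. RNA came from bone-marrow-derived macrophages, cells grown out of mouse marrow with L-929 fibroblast medium and collected at day 7. The 5 knock-in libraries are labelled hWDFY3KI/KI. The 5 control libraries are labelled wild-type control. The design text gives 5 mice per genotype, every one a male aged 6 to 8 weeks, so a library stands for a mouse. The label of the knock-in genotype is human WDFY3 overexpression. WDFY3, also called ALFY, is a large protein of selective autophagy. The insertion site of the human allele, its promoter and the strain of the mice are not stated in any source used here.

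Rosa26 is a ubiquitously active locus first found in a gene-trap screen and since used to place transgenes, since cassettes inserted there are transcribed in most cell types. Its product is a non-coding RNA, and the genes around it encode proteins of unrelated function. They include DNA repair enzymes, subunits of actin-nucleating complexes, proteins of the endoplasmic reticulum, regulators of lipid metabolism and members of the BCL2 family. In macrophages the best known of them is Pparg, a nuclear receptor that controls fatty acid uptake and storage and the character of alveolar macrophages.

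The libraries were made strand-specifically from poly(A) RNA and held 14.6 to 36.4 M estimated counts. Levels are given as CPM, counts per 1 M counts of the library on library sizes scaled by TMM, and differences as log2 fold changes of knock-in over control with their standard errors. A gene was called where its Benjamini-Hochberg adjusted p in edgeR's quasi-likelihood test, taken over all 12411 genes, was under 0.05. The 10 macrophage markers summed to 31751 to 38880 CPM in the knock-in libraries and 25533 to 36695 CPM in the controls, and none was at 0. The 10 stromal fibroblast markers summed to 2.25 to 96.2 CPM in the knock-in libraries and 5.99 to 164 CPM in the controls, and none was at 0 in all libraries. Knock-in 4, at 96.2 CPM, and controls 1 and 4, at 164 and 162 CPM, stood apart, since the other 7 libraries were at 2.25 to 23.2 CPM. The summed level of the 10 neutrophil markers was also highest in these libraries, at 220.3 CPM in knock-in 4 and 293 and 261 CPM in controls 1 and 4, against 51.9 to 125 CPM elsewhere. Most of that sum was Mmp8, which averaged 103 CPM in the knock-in libraries and 151 CPM in the controls. The 5 B cell markers summed to 1.58 to 3.997 CPM in the knock-in libraries and 2.62 to 5.16 CPM in the controls, and the 5 T cell markers, nearly all of it Cd4, to 20.8 to 47.6 CPM in the knock-in libraries and 26.7 to 41.7 CPM in the controls. The 5 mast cell markers summed to 1.46 to 5.45 CPM in the knock-in libraries and 1.08 to 3.01 CPM in the controls, with Tpsb2 at 0 throughout. In cultures of mixed cells, a change in the share of a cell type and a change in RNA per cell cannot be told apart.

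Promoter windows, 250 bases before to 50 after the annotated start, were found for 38 of the 45 genes in the RefSeq table (GRCm38.p6), and 4 are printed. Tmcc1 and Dppa3 were among the 7 genes for which none was found. The 4 shown are those of the other genes whose groups did not overlap and, for its layout, that of Emc3. Mbd4 differed most of the genes that were higher in the knock-in cells, and its window (chr6:115853292-115853591, minus strand) also holds the annotated start of Ift122, which runs the other way. Bid and Zfand4 were lower in each knock-in library than in any control library. For Zfand4, knock-in 2 and control 2 both rounded to 2.67 CPM. The windows of Bid and Zfand4 are chr6:120916775-120917074 on the minus strand and chr6:116263969-116264268 on the plus strand. Emc3 shares its window (chr6:113531589-113531888, minus strand) with the start of Fancd2 in the same head-to-head layout as Mbd4 and Ift122. No gene of either pair passed the test. Capitals mark the GC box GGGCGG and the CCAAT box on either strand.
Mbd4: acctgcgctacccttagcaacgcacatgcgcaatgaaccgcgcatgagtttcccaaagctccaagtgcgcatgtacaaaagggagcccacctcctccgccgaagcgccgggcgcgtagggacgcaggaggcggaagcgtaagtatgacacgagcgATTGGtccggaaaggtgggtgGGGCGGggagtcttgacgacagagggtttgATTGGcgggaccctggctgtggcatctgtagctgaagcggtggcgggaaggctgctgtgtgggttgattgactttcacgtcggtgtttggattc
Bid: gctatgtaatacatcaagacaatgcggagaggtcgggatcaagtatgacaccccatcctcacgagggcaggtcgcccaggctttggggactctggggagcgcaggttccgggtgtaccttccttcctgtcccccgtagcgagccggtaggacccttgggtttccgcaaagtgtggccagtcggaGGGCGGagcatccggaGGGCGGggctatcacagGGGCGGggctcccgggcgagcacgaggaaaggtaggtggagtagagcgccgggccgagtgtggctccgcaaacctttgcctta
Zfand4: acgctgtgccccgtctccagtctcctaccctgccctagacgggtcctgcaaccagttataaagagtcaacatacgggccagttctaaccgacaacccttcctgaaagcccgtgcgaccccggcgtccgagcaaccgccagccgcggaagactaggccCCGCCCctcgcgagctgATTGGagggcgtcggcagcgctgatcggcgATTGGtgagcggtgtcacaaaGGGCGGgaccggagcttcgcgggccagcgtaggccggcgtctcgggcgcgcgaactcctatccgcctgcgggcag
Emc3: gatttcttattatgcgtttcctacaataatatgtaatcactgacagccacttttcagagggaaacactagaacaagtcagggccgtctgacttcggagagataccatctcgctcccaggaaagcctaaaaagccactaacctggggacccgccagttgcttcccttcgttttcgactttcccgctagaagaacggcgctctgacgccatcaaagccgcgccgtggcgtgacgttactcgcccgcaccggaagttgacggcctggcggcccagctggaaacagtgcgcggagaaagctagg
The windows of Mbd4, Bid and Zfand4 held 1, 3 and 2 GC boxes and 2, 0 and 2 CCAAT boxes, and that of Emc3 held 0 of either. None of these matches overlapped another. A TATA box (TATAAA) was found once, in the window of Zfand4. Over all 32851 windows in the table, 35.7% held a GC box, 37.4% a CCAAT box and 13.6% a TATA box, against 63.2%, 21.1% and 7.89% of the 38 listed genes. The median GC content was 61.7% in the listed genes' windows and 52.7% in all windows.

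Of the 41 tested genes, 1 was called, Tmcc1, which was lower in the knock-in macrophages. Over all tested genes 0.0806% were called in either direction and 0.0403% as lower. The log2 fold change was positive for 19 listed genes and negative for 22, with a median of -0.0037, against a median of -0.0046 over all tested genes. An unadjusted p under 0.05 was found for 10 of the 41 genes, where the share over all tested genes was 6.21%. Of the 10, 5 were higher and 5 lower, against shares of 3.29% and 2.92% over all tested genes. The CPM ranges of the groups did not overlap for 5 genes, Mbd4, Tmcc1, Zfand4, Bid and Dppa3, where the share over all tested genes was 1.32%. For Zfand4 the ranges met at 2.67 CPM as rounded. Of the 5, Mbd4 was the higher one, against 0.733% of all tested genes, and the other 4 were lower, against 0.588%. DESeq2 called 4 of the listed genes (Tmcc1, Mbd4, Bid and Dppa3) and 0.350% of all the genes it tested, and edgeR without the 3 stroma-rich libraries called 4 and 0.304%. Dppa3 had few counts in the knock-in libraries and passed the filter on low counts only through the controls, so it had to differ. Without it, 9 of 40 listed genes had an unadjusted p under 0.05, and the groups did not overlap for 4. The median size of the log2 fold change was 0.060 for the listed genes and 0.077 for all tested genes, so that most of the list lay close to 0 and a few genes lay well apart from it. These few are 2.76 to 9.55 Mb after the locus, as the plot of fold change by distance shows.

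**Figure D1:**
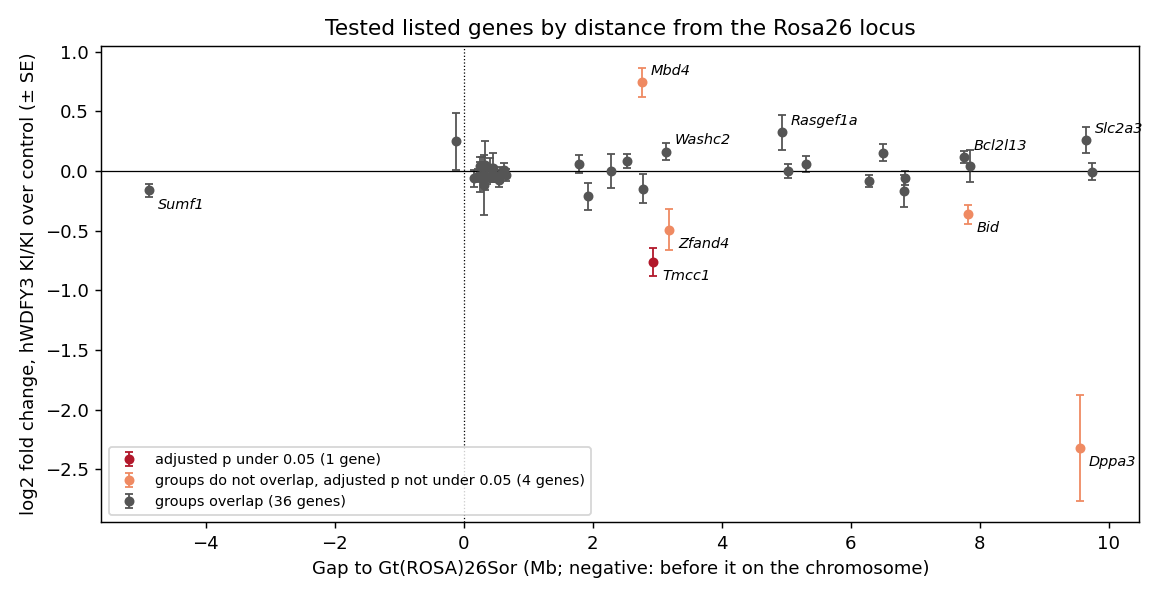
Log2 fold change of knock-in over control with its SE (y axis) for the 41 tested genes, against the gap in Mb to Gt(ROSA)26Sor (x axis, negative before the locus); colours give the call and whether the groups overlap, and genes with an unadjusted p under 0.05 are named. The 17 genes within 1 Mb after the locus lie between -0.12 and 0.047, and the genes whose groups do not overlap lie 2.76 to 9.55 Mb from it.

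Tmcc1 (ENSMUSG00000030126, 116018611 to 116193486 on the minus strand in GRCm38) encodes a membrane protein of the endoplasmic reticulum that acts at contacts with endosomes. It was at 38.7, 32.4, 36.5, 42.9 and 35.8 CPM in knock-in libraries 1 to 5, against 69.5, 62.4, 56.3, 78.5 and 49.3 CPM in control libraries 1 to 5. Every knock-in library lay below every control library. The means were 37.3 ± 3.90 CPM in knock-in and 63.2 ± 11.4 CPM in control macrophages (SD, n = 5 each, as for all means given with ±), and the gene fell in the knock-in macrophages by a log2 fold change of -0.76 ± 0.12 (adjusted p = 0.0390). Knock-in 4 was the highest of its group and controls 4 and 1 the highest of theirs, and these 3 are the stroma-rich libraries. Without knock-in 4 and controls 1 and 4 the log2 fold change was -0.64 (adjusted p = 0.00800). The adjusted p was above 0.05 (0.0675 to 0.185) when control 1, 2 or 3 or knock-in 1, 2, 3 or 5 was left out, while the log2 fold change stayed between -0.80 and -0.72 in these 7 fits. The adjusted p was 0.130 with no filter on low counts and 0.425 with limma-trend on the deposited log2 values. Its exons share 258 bases with Gm20404 and 387 with Gm8203 on the opposite strand, a small part of its 20.1 kb. Plxnd1, a semaphorin receptor that lies nearby at a gap of 2.88 Mb and is not among the 45, rose in the knock-in macrophages, at 548 ± 18.5 CPM in knock-in and 364 ± 49.5 CPM in control macrophages (log2 0.59 ± 0.083, adjusted p = 0.0154).

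Among the DNA repair genes, Mbd4 (ENSMUSG00000030322, 115840697 to 115853371 on the minus strand) was the furthest from 0. It encodes a glycosylase that removes thymine or uracil mispaired with guanine at methylated CpG sites. Its level was 9.85, 10.1, 8.90, 7.53 and 10.04 CPM in knock-in libraries 1 to 5 and 5.05, 6.19, 5.10, 4.71 and 6.76 CPM in control libraries 1 to 5. The lowest knock-in library exceeded the highest control library. The log2 fold change was 0.74 ± 0.12, or 1.67-fold, and the adjusted p was 0.0584, just outside the threshold, with an unadjusted p of 5.17e-05. DESeq2 called it (adjusted p = 1.08e-04), as did limma-voom (0.0488), the fit without a filter on low counts (0.0141) and the fit without the 3 stroma-rich libraries (0.0457). In all, 7 of the 19 alternatives called it, and the adjusted p ran from 1.08e-04 to 0.293. With 1 library left out it was called in 2 fits, at adjusted p from 0.0207 to 0.249 over these fits. On the deposited log2 values the difference was 0.21 (limma-trend, adjusted p = 0.293). Its exons share 264 bases with Gm44206 on the opposite strand, which was at 15.3 ± 0.942 CPM in knock-in and 14.2 ± 2.84 CPM in control macrophages. The other repair enzymes of the list did not pass the test either. Ogg1, the glycosylase of oxidised guanine, was at 7.35 ± 0.704 CPM in knock-in and 7.60 ± 1.24 CPM in control macrophages (unadjusted p = 0.687). Fancd2, the Fanconi anaemia protein that marks stalled forks, was at 7.64 ± 0.833 CPM in knock-in and 7.52 ± 1.25 CPM in control macrophages (unadjusted p = 0.829). Rad52, an annealing factor of homologous recombination, was at 5.97 ± 0.902 CPM in knock-in and 6.69 ± 1.07 CPM in control macrophages (unadjusted p = 0.244). All 3 lay within 1 SD of each other between the groups. Of 28 other genes of base excision repair, the Fanconi pathway and homologous recombination, all tested, 19 were higher and 9 lower in the knock-in cells, 0 were called and 2 had an unadjusted p under 0.05, both higher. Their median log2 fold change was 0.046.

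The BCL2 family members Bid and Bcl2l13 lie tail to tail, and their spans overlap by 913 bases. Bid (ENSMUSG00000004446, 120891930 to 120916853 on the minus strand) encodes the BH3-only protein that caspases cleave to reach mitochondria. It was at 26.6, 30.2, 28.5, 34.8 and 30.1 CPM in knock-in libraries 1 to 5, against 35.2, 42.002, 41.96, 35.7 and 38.4 CPM in control libraries 1 to 5. The groups were separate, but knock-in 4 at 34.8 CPM came close to control 1 at 35.2 CPM. The log2 fold change was -0.36 ± 0.079 (adjusted p = 0.212, unadjusted p = 4.95e-04), which did not pass in edgeR. DESeq2 called it at 0.0221, and the fit without the 3 stroma-rich libraries gave -0.50 with an adjusted p of 0.0115, in a range from 0.0115 to 0.661 over the alternatives. Bcl2l13, a mitophagy receptor of the outer mitochondrial membrane, was at 43.3, 42.6, 41.5, 42.5 and 43.1 CPM in knock-in libraries 1 to 5 and 43.8, 37.1, 37.5, 39.5 and 38.3 CPM in control libraries 1 to 5. Knock-in libraries lay above 4 of the 5 controls, with control 1 the exception (log2 0.12 ± 0.053, unadjusted p = 0.0459, adjusted p = 0.788). The 2 genes share 628 exon bases on opposite strands, and no source used here says if strand entered the quantification, so reads from that stretch cannot be assigned with certainty. Of 17 other BCL2 family genes, 14 were tested, 8 of them higher and 6 lower, 0 were called, 3 had an unadjusted p under 0.05, and the median log2 fold change was 0.0057.

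Dppa3 and Zfand4 had lower levels in the knock-in cells at low counts, and neither passed the test. Dppa3 (ENSMUSG00000046323, 122626410 to 122630272 on the plus strand), known from oocytes and early embryos, where it protects DNA methylation, had 3, 5, 3, 14 and 5 estimated counts in knock-in libraries 1 to 5 and 28, 58, 16, 65 and 15 in control libraries 1 to 5. This made 0.312 ± 0.240 CPM in the knock-in and 1.53 ± 0.649 CPM in the control macrophages. Each knock-in library was below each control. The gene passed the filter, whose minimum count is 10 in a library of median size, through the control group. Of the knock-in libraries only knock-in 4, at 14 counts or 0.717 CPM, exceeded that minimum. The log2 fold change was -2.32 ± 0.44 (adjusted p = 0.150, with DESeq2 at 0.00204 and a range from 0.00204 to 0.502 over the alternatives). On the deposited log2 values, which shrink low counts, the difference was -0.13. The Dppa3 transcript matched that of Dppa3-ps at 98.2% identity over 451 of 833 bases, so part of its reads cannot be placed with certainty, although Dppa3-ps itself was listed at 0 in every library. Dppa3 lies 0.024 Mb after Apobec1, a cytidine deaminase that was not among the 45 and was at 932 ± 154 CPM in knock-in and 291 ± 9.81 CPM in control macrophages (log2 1.68 ± 0.11, adjusted p = 1.28e-05). Zfand4, a protein with an AN1-type zinc finger, was at 2.05, 2.67, 2.31, 2.66 and 1.67 CPM in knock-in libraries 1 to 5 and 3.97, 2.67, 2.94, 3.20 and 3.18 CPM in control libraries 1 to 5. The groups met at 2.67 CPM, where knock-in 2 lay below control 2 by less than the rounding shown. The log2 fold change of -0.49 ± 0.17 did not pass (adjusted p = 0.700).

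**Figure D2:**
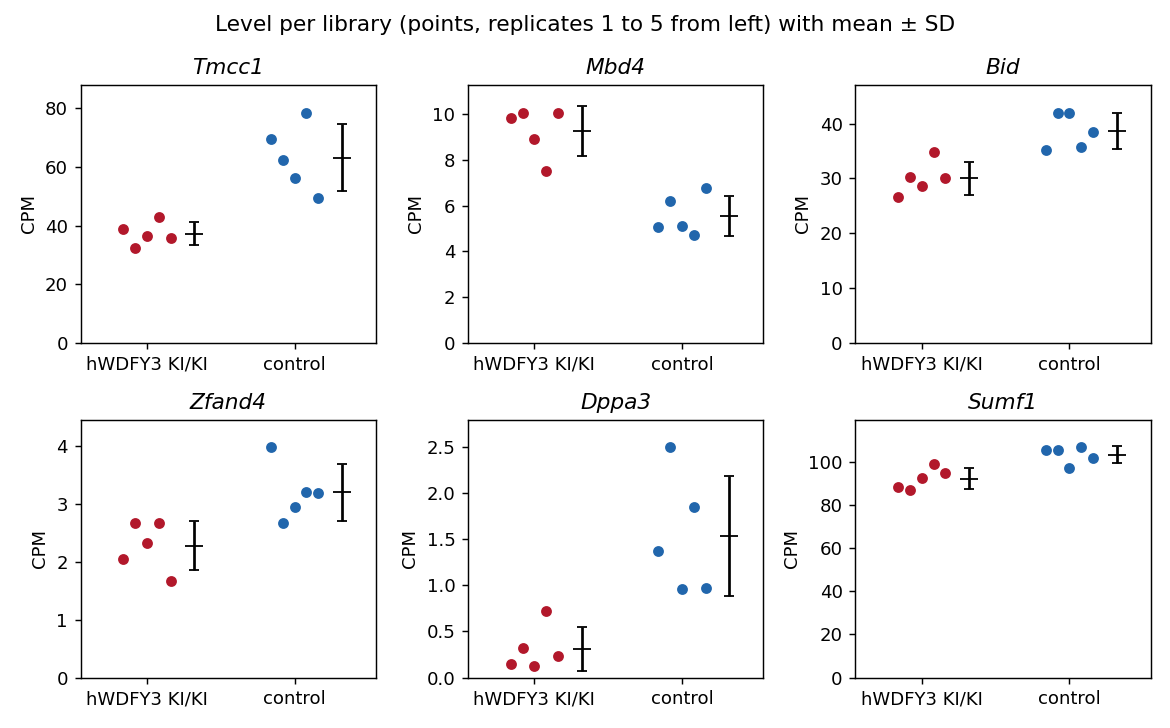
CPM (y axis) of Tmcc1, Mbd4, Bid, Zfand4, Dppa3 and Sumf1 in the 5 knock-in libraries (left in each panel) and the 5 control libraries (right), with mean and SD beside the points. Knock-in and control points do not overlap in the first 5 genes, Zfand4 touching at 2.67 CPM, and Sumf1 overlaps through knock-in 4 and control 3.

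Apart from Tmcc1, described above, the genes of the endoplasmic reticulum and secretory pathway gave no call, and Sumf1 was the furthest apart of these. Sumf1 (108107028 to 108185582 on the minus strand), whose product activates sulfatases by forming their catalytic formylglycine, was the one listed gene lying far before the locus, at -4.88 Mb on a scale that is negative before the locus. It was at 88.5, 86.8, 92.3, 98.8 and 94.7 CPM in knock-in libraries 1 to 5 and 105, 105, 97.1, 107 and 102 CPM in control libraries 1 to 5. Only knock-in 4 reached the range of the controls, above control 3 alone. The log2 fold change was -0.16 ± 0.051 (unadjusted p = 0.00734, adjusted p = 0.655). Emc3, a subunit of the complex that inserts membrane proteins, was at 91.2 ± 1.61 CPM in knock-in and 93.8 ± 4.98 CPM in control macrophages. Sec13, a coat protein of COPII vesicles and part of the nuclear pore, was at 53.7 ± 1.71 CPM in knock-in and 54.8 ± 2.80 CPM in control macrophages. For both the groups overlapped, with an unadjusted p of 0.421 for Emc3 and 0.550 for Sec13. Jagn1, required for neutrophil maturation, was at 19.7 ± 1.21 CPM in knock-in and 20.3 ± 0.984 CPM in control macrophages (unadjusted p = 0.463). Creld1, a membrane protein with EGF-like domains, was at 28.1 ± 2.24 CPM in knock-in and 27.6 ± 3.27 CPM in control macrophages (unadjusted p = 0.756).

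Of the genes acting on the cytoskeleton, Arpc4, a subunit of the Arp2/3 complex that nucleates branched actin, and Brk1, the smallest subunit of the WAVE complex that activates it, were among the highest of the list. Arpc4 was at 220.3 ± 9.31 CPM in knock-in and 216 ± 5.19 CPM in control macrophages (log2 0.026 ± 0.048, interval of 2 SE from -0.071 to 0.12). Brk1 was at 136 ± 2.64 CPM in knock-in and 139.98 ± 7.29 CPM in control macrophages (log2 -0.042 ± 0.049, interval of 2 SE from -0.14 to 0.057). Washc2, of the WASH complex that drives actin on endosomes, was at 136, 142, 138, 129 and 153 CPM in knock-in libraries 1 to 5 and 129, 140.5, 113, 111 and 129 CPM in control libraries 1 to 5. The groups overlapped, with controls 1, 2 and 5 above knock-in 4 (log2 0.16 ± 0.072, unadjusted p = 0.0416, adjusted p = 0.787). Srgap3, a GTPase-activating protein for Rac, was at 3.43 ± 1.35 CPM in knock-in and 2.88 ± 0.399 CPM in control macrophages. Mical3, an actin-oxidising monooxygenase, was at 5.84 ± 1.14 CPM in knock-in and 5.65 ± 0.357 CPM in control macrophages. Both varied more among the knock-in than among the control libraries. On the microtubule side, Ttll3, a tubulin glycylase, was at 1.13 ± 0.334 CPM in knock-in and 1.24 ± 0.253 CPM in control macrophages, and Ift122, of the ciliary transport machinery, at 7.80 ± 0.836 CPM in knock-in and 8.67 ± 1.43 CPM in control macrophages. Erc1, a scaffold of cortical and vesicle docking sites, was at 27.01 ± 1.87 CPM in knock-in and 24.3 ± 2.07 CPM in control macrophages (unadjusted p = 0.0518), and control 1, at 27.99 CPM, lay above the other controls. Of 22 other subunits of Arp2/3, WAVE and WASH, 20 were tested, 11 higher and 9 lower, 0 were called, 2 had an unadjusted p under 0.05, 1 in each direction, and the median log2 fold change was 0.011.

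The lipid genes of the list gave no call. Pparg was at 58.3, 54.9, 57.3, 49.2 and 70.2 CPM in knock-in libraries 1 to 5 and 58.3, 68.96, 58.9, 39.3 and 65.3 CPM in control libraries 1 to 5. It was lowest within each group in knock-in 4 and control 4, the libraries rich in stromal RNA (control 1, also rich in it, was second lowest), and spanned 39.3 to 70.2 CPM over all 10. The group means of 57.98 ± 7.67 CPM in knock-in and 58.1 ± 11.4 CPM in control macrophages gave a log2 difference of -0.00030 ± 0.14 with an interval of 2 SE from -0.29 to 0.29. Cidec, a lipid droplet protein of fat cells, had 0 counts in all libraries, which allows at most 0.030 CPM over the 5 knock-in and 0.027 CPM over the 5 control libraries, counting error only. The adipocyte markers summed to at most 0.102 CPM in a knock-in and 0.065 CPM in a control library, with Lep, Cfd and Retn at 0. Adipor2, an adiponectin receptor, was at 107 ± 4.67 CPM in knock-in and 114 ± 4.25 CPM in control macrophages (log2 -0.086 ± 0.049). Tamm41, which makes the precursor of cardiolipin in mitochondria, was at 4.74 ± 0.374 CPM in knock-in and 5.49 ± 0.677 CPM in control macrophages (unadjusted p = 0.0896). Mtmr14, a phosphoinositide phosphatase, was at 33.4 ± 1.81 CPM in knock-in and 34.9 ± 3.48 CPM in control macrophages. Of 18 partners and targets of PPAR gamma and lipid droplet genes, 14 were tested, 8 higher and 6 lower, 0 were called, 1 had an unadjusted p under 0.05, and the median log2 fold change was 0.023.

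The signalling genes gave no call either. Camk1, a calcium and calmodulin dependent kinase, was at 78.96 ± 7.54 CPM in knock-in and 76.7 ± 6.76 CPM in control macrophages. Irak2, a kinase of Toll-like and interleukin-1 receptor signalling, was at 49.3 ± 3.72 CPM in knock-in and 50.2 ± 3.32 CPM in control macrophages. Wnk1, a kinase that controls ion transport, was at 438 ± 33.2 CPM in knock-in and 456 ± 23.02 CPM in control macrophages. The group means of these 3 kinases lay within 1 SD of each other. Rasgef1a, an exchange factor for Ras proteins, was at 8.04, 9.62, 10.8, 7.84 and 9.51 CPM in knock-in libraries 1 to 5 and 6.96, 6.88, 9.05, 5.33 and 8.64 CPM in control libraries 1 to 5, so that the groups overlapped (log2 0.33 ± 0.15, unadjusted p = 0.0440, adjusted p = 0.788). Without the 3 stroma-rich libraries its log2 fold change was 0.22. Il17rc, a subunit of the interleukin-17 receptor, had 2, 0, 1, 1 and 1 counts in knock-in libraries 1 to 5 and 2, 0, 0, 4 and 1 in control libraries 1 to 5. Hrh1, a histamine receptor, had 6, 1, 4, 5 and 10 counts in knock-in libraries 1 to 5 and 4, 4, 6, 6 and 2 in control libraries 1 to 5. Ninj2, an adhesion protein, had 3, 1, 0, 0 and 2 counts in knock-in libraries 1 to 5 and 1, 0, 2, 0 and 0 in control libraries 1 to 5. These 3 genes and Cidec are the 4 that the filter left out. Of 17 other genes of interleukin-1, Toll and interleukin-17 receptor signalling, 13 were tested, 8 higher and 5 lower, and 0 were called, with a median log2 fold change of 0.0079.

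None of the regulators of transcription and protein turnover was called. Vhl, the substrate receptor of the ligase that destroys hypoxia-inducible factors, was at 22.9 ± 1.02 CPM in knock-in and 24.05 ± 1.35 CPM in control macrophages (log2 -0.071 ± 0.059, interval of 2 SE from -0.19 to 0.046). Of 20 genes of that ligase, the factors and their targets, 19 were tested, 5 higher and 14 lower, 0 were called and 0 had an unadjusted p under 0.05, with a median log2 fold change of -0.035. Slc2a3, the glucose transporter GLUT3 and a known target of hypoxia-inducible factors, was at 4.63, 5.46, 5.41, 4.71 and 5.30 CPM in knock-in libraries 1 to 5 and 4.07, 4.86, 3.90, 4.20 and 4.29 CPM in control libraries 1 to 5. All but control 2 lay below the knock-in range (log2 0.26 ± 0.11, unadjusted p = 0.0355, adjusted p = 0.774). Brpf1, the scaffold of the MOZ and MORF acetyltransferases, was at 52.03 ± 1.89 CPM in knock-in and 53.4 ± 3.02 CPM in control macrophages. Tada3, an adaptor of the SAGA and ATAC acetyltransferases, was at 18.998 ± 1.73 CPM in knock-in and 18.5 ± 1.04 CPM in control macrophages. Neither had an unadjusted p under 0.05 (0.487 for Brpf1 and 0.583 for Tada3). Of 21 other genes of these acetyltransferase complexes, all tested, 12 were higher and 9 lower, and 0 were called or had an unadjusted p under 0.05, with a median log2 fold change of 0.0051. Vgll4, which competes with YAP for TEAD factors, was at 17.5 ± 1.08 CPM in knock-in and 16.7 ± 1.59 CPM in control macrophages. Foxj2, a forkhead factor, was at 33.03 ± 1.78 CPM in knock-in and 33.1 ± 3.23 CPM in control macrophages. Mkrn2, a RING-type ubiquitin ligase, was at 19.3 ± 0.702 CPM in knock-in and 18.2 ± 0.915 CPM in control macrophages. The unadjusted p of these genes was 0.449 for Vgll4, 0.959 for Foxj2 and 0.170 for Mkrn2. Among genes of RNA and ribosomes, Bms1, a GTPase of small ribosomal subunit assembly, was at 46.1 ± 2.76 CPM in knock-in and 44.3 ± 3.40 CPM in control macrophages. Rpusd3, a pseudouridine synthase of mitochondria, was at 1.71 ± 0.291 CPM in knock-in and 1.66 ± 0.400 CPM in control macrophages, with a wide interval of 2 SE from -0.37 to 0.46 on the log2 scale. Tatdn2, of a nuclease family, was at 80.1 ± 3.68 CPM in knock-in and 79.6 ± 6.19 CPM in control macrophages. Csgalnact2, which builds chondroitin sulphate, was at 52.2 ± 3.13 CPM in knock-in and 52.3 ± 2.89 CPM in control macrophages, and its log2 fold change, 0.00051 ± 0.057, was among the nearest to 0 in the list.

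Per length of annotated exon, the listed genes with counts spanned nearly 4 orders of magnitude. Brk1 was highest, at 124 ± 2.41 CPM per kb in knock-in and 128 ± 6.66 CPM per kb in control macrophages. Arpc4 came next, at 94.9 ± 4.01 CPM per kb in knock-in and 93.2 ± 2.24 CPM per kb in control macrophages, and lay below Brk1 by more than the spread of either. Sumf1 was at 27.1 ± 1.41 CPM per kb in knock-in and 30.3 ± 1.14 CPM per kb in control macrophages. Emc3 was at 27.1 ± 0.479 CPM per kb in knock-in and 27.9 ± 1.48 CPM per kb in control macrophages, and in the knock-in libraries Sumf1 and Emc3 lay within each other's spread. Tatdn2 was at 22.6 ± 1.04 CPM per kb in knock-in and 22.4 ± 1.75 CPM per kb in control macrophages, below both. Wnk1 was at 19.2 ± 1.45 CPM per kb in knock-in and 19.99 ± 1.01 CPM per kb in control macrophages. Pparg was at 19.6 ± 2.60 CPM per kb in knock-in and 19.7 ± 3.88 CPM per kb in control macrophages. Adipor2, at 17.9 ± 0.782 CPM per kb in knock-in and 19.03 ± 0.711 CPM per kb in control macrophages, followed, and the levels of Wnk1, Pparg and Adipor2 did not differ beyond their spread. In all, 13 genes were over 10 CPM per kb, 19 between 1 and 10, and 13 under 1, Cidec included. Tmcc1, spread over 20.1 kb of exon, was at 1.85 ± 0.194 CPM per kb in knock-in and 3.14 ± 0.564 CPM per kb in control macrophages. Mbd4 was at 1.76 ± 0.206 CPM per kb in knock-in and 1.05 ± 0.165 CPM per kb in control macrophages. On this scale Mbd4 was close to Tmcc1 in the knock-in macrophages and below it in the controls. Per kb of the longest annotated transcript, over all libraries, Tmcc1 was at 8.61 CPM and Mbd4 at 2.05 CPM. Wnk1 was then at 39.5 CPM per kb, above Sumf1 at 37.7 and Pparg at 27.3. The order of genes therefore depends on the length used. Within groups, the SD of log2 CPM ran from 0.049 for Arpc4 to 0.66 for Dppa3, with a median of 0.12 for the listed genes and 0.15 over all tested genes.

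**Figure D3:**
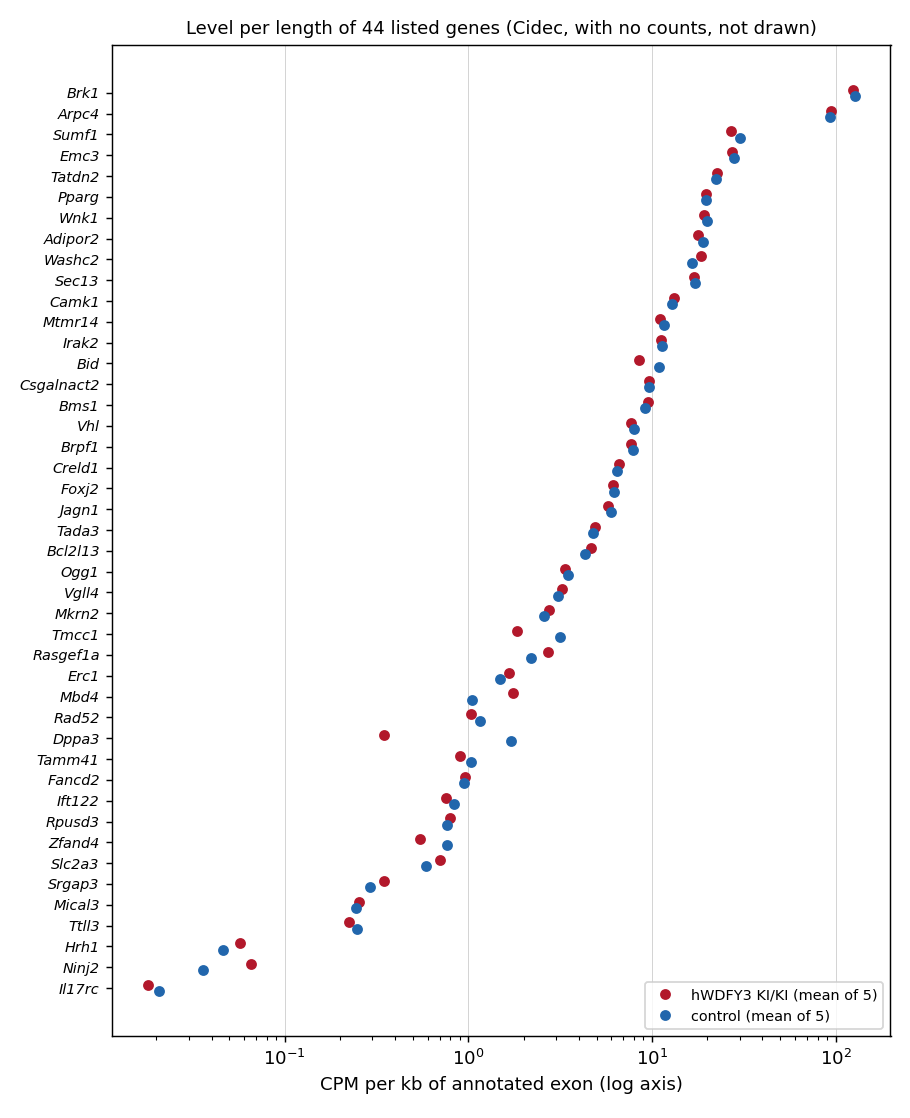
Mean CPM per kb of annotated exon (log axis) in knock-in (red) and control (blue) libraries for the 44 listed genes with counts, in order of their level over all libraries. Brk1 and Arpc4 are highest and Il17rc lowest, and among the tested genes the groups are furthest apart for Dppa3, Tmcc1, Mbd4, Zfand4 and Bid.

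Adjacent genes were set against each other within each library. In 7 pairs of listed genes less than 1 kb apart or overlapping, both tested, the ratio of the 2 genes within a library was compared between the groups. It was separate in 1 pair, the one with Mbd4, whose own groups did not overlap, so this ratio is not independent of that difference. The share of separate ratios among adjacent pairs over all genes was not worked out, and nothing is read from this count. Mbd4 and Ift122 start 98 bases apart on opposite strands, and Mbd4 over Ift122 was 1.13, 1.505, 1.24, 0.902 and 1.25 in knock-in libraries 1 to 5, against 0.715, 0.804, 0.472, 0.524 and 0.765 in control libraries 1 to 5. Mbd4 was thus the more abundant in CPM in 4 of 5 knock-in libraries and the less abundant in all 5 controls, while Ift122 itself had a log2 fold change of -0.15 ± 0.12 (unadjusted p = 0.241). Of the ratio of Bcl2l13 to Bid, the knock-in range of 1.22 to 1.63 met the control range of 0.883 to 1.24. The head-to-head pairs Emc3 with Fancd2, whose starts are 29 bases apart, and Tada3 with Arpc4, 231 bases apart, had ratios that overlapped between the groups. Emc3 over Fancd2 was 12.1 ± 1.37 in knock-in and 12.8 ± 2.28 in control libraries, and Tada3 over Arpc4 was 0.0863 ± 0.0073 in knock-in and 0.0854 ± 0.0054 in control libraries. In all, 19 listed genes share exon bases with another annotated gene, 16 of them with a gene on the opposite strand, and Arpc4 shares 283 with Ttll3 on the same strand. Rpusd3 shares 65.2% of its exon bases with Gm44280. The transcript of Tada3 matched Gm9109 at 93.3% identity over 39.2% of its length, so the values of Rpusd3 and Tada3 are uncertain in the same way as those of Bid and Dppa3.

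**Figure D4:**
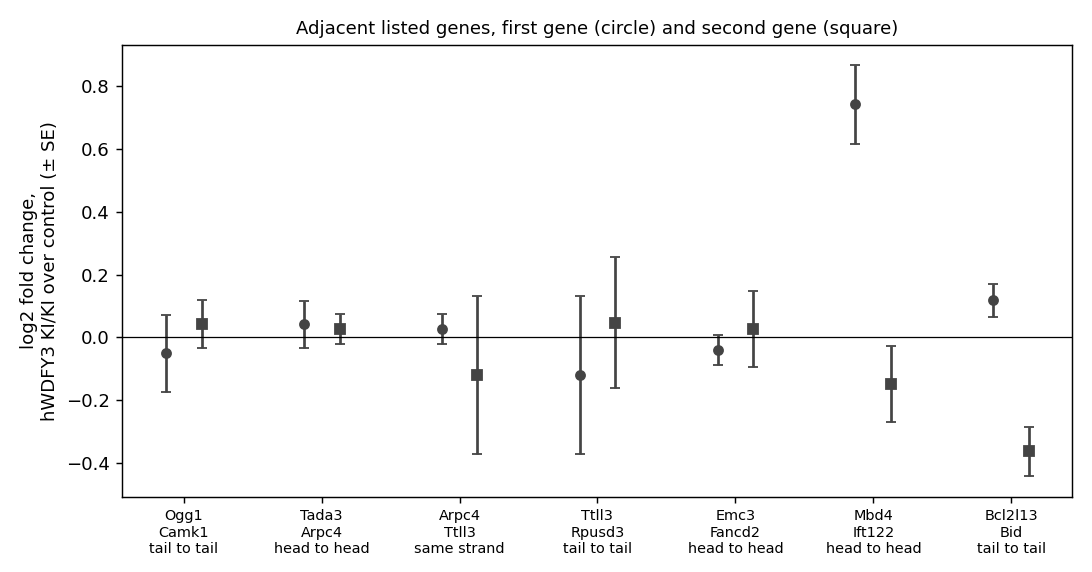
Log2 fold change of knock-in over control with SE (y axis) for 7 pairs of adjacent listed genes, the first in coordinate order as a circle and the second as a square, with the pair's orientation below. Mbd4 and Ift122, and Bcl2l13 and Bid, lie on opposite sides of 0, and every other gene lies within 1 SE of it.

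Set along the chromosome, the listed genes just after the locus lay close to 0. Of the 19 listed genes within 1 Mb after it, from Mtmr14 to Sec13, 17 were tested, 10 lower and 7 higher, with log2 fold changes from -0.12 (Ttll3) to 0.047 (Rpusd3). The smallest unadjusted p among them was 0.247, for Vhl. For 15 of the 17 the interval of 2 SE lay inside a 1.25-fold change either way, and Ttll3 and Rpusd3, the lowest in CPM, had wider ones. Between the locus and this stretch lies Setd5, not among the 45, which was at 50.5 ± 2.29 CPM in knock-in and 73.1 ± 2.68 CPM in control macrophages (adjusted p = 4.75e-04), and Gt(ROSA)26Sor itself was at 0.0489 ± 0.0483 CPM in knock-in and 3.58 ± 1.72 CPM in control macrophages. Gt(ROSA)26Sor had 5 counts in all knock-in libraries and 380 in all controls, and passed the filter only through the controls, so its call (adjusted p = 4.75e-04) is no independent support. Srgap3, just before the locus, had a log2 fold change of 0.25 ± 0.24 (unadjusted p = 0.323). By gap to the locus on either side, 0 of 20 tested listed genes within 2 Mb had an unadjusted p under 0.05, against 6 of 9 from 2 to 5 Mb and 4 of 12 from 5 to 10 Mb. Groups did not overlap for 0, 3 and 2 of them. Dppa3, which passed the filter through the controls, is counted among the 4 and the 2 from 5 to 10 Mb. The shares over all tested genes were 6.21% with an unadjusted p under 0.05 and 1.32% without overlap. Over all tested genes of the same distances, listed or not, 3 of 26, 10 of 33 and 8 of 39 had an unadjusted p under 0.05, and the groups did not overlap for 3, 5 and 4. Gm16556, at a gap of 9.48 Mb, passed the filter in the same way and is counted with Dppa3 from 5 to 10 Mb. The 3 within 2 Mb are Gt(ROSA)26Sor, Setd5 and Atg7, an enzyme of autophagosome formation at 76.5 ± 2.96 CPM in knock-in and 64.3 ± 3.88 CPM in control macrophages (log2 0.25 ± 0.054, unadjusted p = 4.70e-04, adjusted p = 0.208). The contrast between the nearest and the further listed genes therefore depends on which genes are listed. Since the list was drawn up with results of these libraries known, these shares describe it and no test was made of them.

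Over every tested gene within 10 Mb, listed or not, 6 of 98 were called (6.12%, against 0.0806% of all tested genes), and Tmcc1 is the only one of them in the list. Without Gt(ROSA)26Sor and Dppa3, which are among the genes that passed the filter through the controls, 5 of 96 were called. The others are Gt(ROSA)26Sor, Setd5, Plxnd1, Rassf4, a Ras-association domain protein, at 436 ± 13.97 CPM in knock-in and 597 ± 41.4 CPM in control macrophages (log2 -0.45 ± 0.056), and Apobec1. The groups did not overlap for 12 of the 98 (12.2%), 5 listed and 7 not, against 1.32% of all tested genes. Without Gt(ROSA)26Sor and Dppa3 they did not overlap for 10 of 96 (10.4%). These 10 still include Gm16556, which had 31 counts in all knock-in libraries and 72 in all controls and also passed the filter through the controls. On the rest of chromosome 6, more than 10 Mb from the locus, the groups did not overlap for 4 of 506 tested genes (0.791%), and 1 of the 506 was called. The called genes within 10 Mb went both ways, 2 higher and 4 lower, and the median log2 fold change of the 98 was -0.0035.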

How the data were processed

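Macrophages of 5 hWDFY3KI/KI and 5 control mice were sequenced, per the labels' protocols, as strand-specific poly(A) libraries with 20 M planned paired-end reads of 100 bp each. The authors deposited estimated counts per Ensembl gene, and the tools in the submitters' processing notes are Salmon 1.6.0, DESeq2 1.34.0 and MultiQC, with GRCm39 and mm10 as builds of unstated role. The authors also deposited log2 values on a regularized-log scale for 14409 gene IDs. Salmon's settings, strand included, are not stated in any source used here.

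The counts were rounded to integers, filtered (filterByExpr, minimum count 10 and minimum total 15) and scaled by TMM. The 5 knock-in libraries were tested against the 5 control libraries with the robust quasi-likelihood test of edgeR 4.0.16 (R 4.3.3), with Benjamini-Hochberg adjustment over 12411 genes and a threshold of 0.05. The biological coefficient of variation was 15.6%. On simulated counts with 200 changed genes among 12411, the test recovered 24% of 1.25-fold, 58% of 1.5-fold, 82% of 2-fold and 98% of 3-fold changes, with 5 false calls. The changed genes were drawn from those averaging at least 1 CPM. The data themselves gave 10 calls, so recovery in them may be lower than in the simulation. The floor of a gene at 0 is 3 counts and covers counting error only.

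Coordinates and exon lengths are those of GENCODE M21 (GRCm38), assigned by gene ID, and no coordinates were converted between builds. Promoter windows are from RefSeq (GRCm38.p6). Transcript similarity was searched with BLAST 2.17.0+ for matches of at least 100 bases at 90% identity. The listed genes, the pathway lists and the cell type markers were chosen with earlier results of these data known. All 45 genes are named. Called genes, genes with an unadjusted p under 0.05 and genes whose CPM ranges do not overlap have every library's value, and the others a mean and SD. Called neighbours and Pparg, Il17rc, Hrh1 and Ninj2 were added to the values shown. Pathway genes appear as counts. The alternatives for every listed gene were other scaling factors, filters, DESeq2 1.42.0, limma-voom (limma 3.58.1), limma-trend on the deposited log2 values, a replicate block and leaving out each library. A fit without the 3 libraries rich in stromal RNA was added after seeing the data. The chi-square per gene between libraries within a group was 9.00 to 52.4, and none was treated as a copy.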

Additional observations from a re-analysis of the deposited data

Results flagged for a closer look

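In 4 of the 88 groups of 5 libraries examined, over the 44 listed genes with counts, 1 library lay further from the rest than Dixon's 95% critical value of 0.71 allows. Chance gives this in about 1 group in 20. Tatdn2 was at 86.5 CPM in knock-in library 5, against 77.6 to 79.6 CPM in the other knock-in libraries. Bms1 was at 41.2 CPM in knock-in library 4, against 46.7 to 47.97 CPM in the other knock-in libraries. Hrh1 was at 0.360 CPM in control library 3, against 0.130 to 0.196 CPM in the other controls. Erc1 was at 27.99 CPM in control library 1, against 23.2 to 23.8 CPM in the other controls. Knock-in 4 and control 1 are among the libraries rich in stromal RNA, and the part of that RNA in these values was not tested.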

How the results depend on the processing

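The listed genes called numbered 1, and 4 with DESeq2 or without the 3 stroma-rich libraries, 2 with limma-voom, with no filter on low counts or with the replicate block, 0 with limma-trend on the deposited log2 values, and 0 to 4 when 1 library was left out. Those with an unadjusted p under 0.05 numbered 6 to 10 when 1 library was left out. Over all tested genes 10 were called, against 49 with DESeq2, 38 without the stroma-rich libraries, 12 with the replicate block and 6 to 23 when 1 library was left out. Of the genes within 10 Mb of the locus 6 were called, against 11 with DESeq2, 2 within 2 Mb, and 4 to 9 when 1 library was left out. The replicate block added Mbd4 to the calls among the listed genes (adjusted p = 0.0406). Libraries with the same number did not deviate together (correlations from -0.20 to 0.51, 2 of 5 over 0.1), so the numbers were not taken to pair them.

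Over 778 values for the 41 genes, 55 had another sign, in 15 genes whose log2 fold change was at most 0.071 in size. Pparg was at 0.00043 with RLE factors, 0.0044 with upper-quartile factors, 0.079 with limma-trend, 0.023 with limma-voom and 0.013 with the block. Csgalnact2 was at -0.0015 with a filter of 1 CPM, -0.029 with limma-trend, -0.0033 with no filter, -0.00051 with the block and -0.040 without the stroma-rich libraries. Foxj2 was at 0.0028 with limma-voom and 0.0018 with upper-quartile factors. With limma-trend Mtmr14 was at 0.019 and Vhl at 0.018. Without the stroma-rich libraries Vhl was at 0.0015, Ogg1 at 0.029, Camk1 at -0.00031, Jagn1 at 0.0019, Fancd2 at -0.042 and Sec13 at 0.0068. With 1 library left out, the log2 fold change spanned -0.14 to 0.025 for Ogg1, -0.0031 to 0.087 for Camk1, -0.030 to 0.19 for Rpusd3, -0.017 to 0.093 for Creld1, -0.034 to 0.12 for Fancd2, -0.058 to 0.0097 for Irak2, -0.020 to 0.043 for Tatdn2, -0.11 to 0.070 for Pparg, -0.035 to 0.029 for Csgalnact2, -0.057 to 0.12 for Mical3 and -0.055 to 0.033 for Foxj2. The cause of these changes was not tested. The depth leaves Dppa3, Ninj2, Il17rc and Hrh1 with few counts per library. Changes of 1.5-fold or less are often missed with 5 libraries a group, and larger ones can be.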
